A study of Mus musculus with 20 samples.

Results

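Small nucleolar RNAs (snoRNAs) were described in the RNA of 20 mouse breast tumors. The members were the genes named Snord or Snora followed by a number whose count averaged at least 10 reads over the 20 tumors. Of 43346 genes in the table, 117 carried such a name, and 87 of these passed the count minimum. They comprised 54 box C/D snoRNAs (Snord) and 33 box H/ACA snoRNAs (Snora). Snord53 and Snord73a lay just inside the minimum with a mean of 10.4 reads each, and Snord50b with 9.30 reads and Snord98 with 9.15 reads lay just outside it.

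Each tumor came from a different female [BALB/c-neuT x FVB/J] F1 mouse with a transgene-positive BALB/c-neuT father and a wildtype FVB/J mother, and the rat neu (Her2) oncogene gave every mouse several spontaneous breast tumors, of which 1 was taken. Small frozen pieces were sequenced after a TruSeq mRNA library preparation, and no gland without the transgene was sequenced. Titles place 9 tumors in Lo and 11 in Hi without saying what these words measure, and the labels give no age. The epithelial markers Krt8, Krt18 and Epcam were at or above 309, 383 and 447 RPKM (defined below) in every tumor. The epithelial markers Cdh1, Cldn7 and Krt19 were lower, at or above 59.8, 54.8 and 4.69 RPKM. Each piece is bulk tissue, so that fewer cells of a type and less RNA per cell cannot be told apart.

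SnoRNAs are short nuclear RNAs that guide enzymes to other RNAs, chiefly ribosomal RNA. Box C/D snoRNAs carry fibrillarin to sites of ribose methylation, box H/ACA snoRNAs carry dyskerin to sites of pseudouridylation, and a few act in the cleavage of the ribosomal RNA precursor. In mammals most are cut out of the introns of a host gene, often one encoding a ribosomal protein or a noncoding RNA of the Snhg family, and the mature forms have no poly(A) tail. A poly(A)-selected library therefore does not aim at them.

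Sequences were read from the GENCODE M21 transcripts of GRCm38 (mm10). A sequence was found for all 87 members, and its span equalled the deposited span in 86. The sets shown are those the results turn on, namely the members with the highest levels, a nearly identical pair, the member with the steepest slope described below, and 3 of the 4 longest members. All are written 5′ to 3′ in DNA letters. Capitals mark the C box (TGATGA, starting in the first 16 bases) and the D box (CTGA, in the last 15 bases) of C/D members, and the H box (ANANNA, in the middle of the RNA) and the ACA near the 3′ end of H/ACA members.
Snora65: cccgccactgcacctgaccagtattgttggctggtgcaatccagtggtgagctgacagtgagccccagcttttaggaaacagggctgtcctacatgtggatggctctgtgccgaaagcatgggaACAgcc
Snord104: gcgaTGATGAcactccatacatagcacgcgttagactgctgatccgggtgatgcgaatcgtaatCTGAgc
Snord96a: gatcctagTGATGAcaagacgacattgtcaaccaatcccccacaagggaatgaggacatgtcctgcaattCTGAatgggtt
Snord22: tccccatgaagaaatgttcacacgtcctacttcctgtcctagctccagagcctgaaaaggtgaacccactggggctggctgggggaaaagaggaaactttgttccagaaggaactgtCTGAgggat
Snord14c: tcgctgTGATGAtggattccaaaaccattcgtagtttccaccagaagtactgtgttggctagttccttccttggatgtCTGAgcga
Snord14d: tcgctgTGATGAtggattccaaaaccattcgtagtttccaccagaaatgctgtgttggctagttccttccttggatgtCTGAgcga
Snord66: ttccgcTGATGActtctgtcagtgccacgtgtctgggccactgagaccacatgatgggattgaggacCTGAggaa
Snora73a: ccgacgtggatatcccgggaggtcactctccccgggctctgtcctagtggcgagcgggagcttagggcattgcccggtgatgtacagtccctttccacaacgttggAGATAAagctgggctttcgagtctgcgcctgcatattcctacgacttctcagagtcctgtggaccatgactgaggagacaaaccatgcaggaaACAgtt
Snora73b: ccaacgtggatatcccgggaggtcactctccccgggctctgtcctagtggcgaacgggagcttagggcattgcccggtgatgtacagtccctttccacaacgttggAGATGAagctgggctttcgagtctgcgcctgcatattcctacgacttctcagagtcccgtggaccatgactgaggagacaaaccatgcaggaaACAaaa
Snord17: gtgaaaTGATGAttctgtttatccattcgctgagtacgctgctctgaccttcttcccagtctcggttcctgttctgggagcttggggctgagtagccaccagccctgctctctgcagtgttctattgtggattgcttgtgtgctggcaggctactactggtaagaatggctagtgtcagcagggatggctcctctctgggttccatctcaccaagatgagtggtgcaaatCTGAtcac

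Snora65 lies at chr2:32963291-32963420 (mm10, + strand) in the ribosomal protein gene Rpl12. Snord104 lies at chr11:106500993-106501062 (+ strand), and no gene of the table other than a small RNA contains it on that strand. Snord96a lies at chr11:48802032-48802112 (+ strand) in Gnb2l1, which encodes the ribosome-associated protein Rack1. Snord22 lies at chr19:8725866-8725991 (+ strand) in the noncoding host Snhg1. Snord14c, at chr9:40803583-40803668, and Snord14d, at chr9:40803995-40804080 (both + strand), sit inside the chaperone gene Hspa8. Snord66 lies at chr16:20684239-20684313 (+ strand) in the translation factor gene Eif4g1. Snora73a, at chr4:132352775-132352979, and Snora73b, at chr4:132352322-132352526 (both - strand), sit in Rcc1, the exchange factor of the GTPase Ran. Snord17 lies at chr2:144265979-144266216 (- strand) in the sorting nexin gene Snx5.

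The box motifs divided the classes. On the RNA strand the C box was found in 35 of 54 C/D members (64.8%) and 0 of 33 H/ACA members, and the D box in 50 of 54 (92.6%) and 2 of 33 (6.06%). The 3′ ACA was found in 31 of 33 H/ACA members (93.9%) and 4 of 54 C/D members (7.41%). The H box letters were less specific, with 30 of 33 (90.9%) against 20 of 54 (37.0%). Snord14c and Snord14d were 97.7% identical and Snora73a and Snora73b 96.6%, differing by 2 and 7 edits over the full length, so that reads of either pair may be split between copies and the counts of each are uncertain.

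SnoRNA sequence was rare but present in every tumor. Total counts ranged from 38765682 to 65465755 reads per tumor, of which between 1905 and 5469 fell on the 87 members, or 39.1 to 86.3 reads in each 1000000. Only 4 members were at 0 in a tumor, each in 1 tumor, and 39 had at least 10 reads in every tumor. The median member had a mean of 28.2 reads, and counting error alone made up 22.6% of its variance between tumors (median over members). C/D members took between 46.5% (Lo 6) and 57.98% (Hi 9) of the snoRNA reads.

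Levels between genes were compared as RPKM (reads per kilobase of listed length and per 1000000 counted reads). The median member stood at 5.77 RPKM, with 6.08 for C/D members and 5.19 for H/ACA members. The middle portion of the C/D members, between the quartiles, ran from 3.34 to 8.43 RPKM and that of the H/ACA members from 3.44 to 6.74. C/D members were shorter, with a median of 78.5 bases against 133. The classes were thus at like levels per base, and their ranges overlapped throughout.

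**Figure D1:**
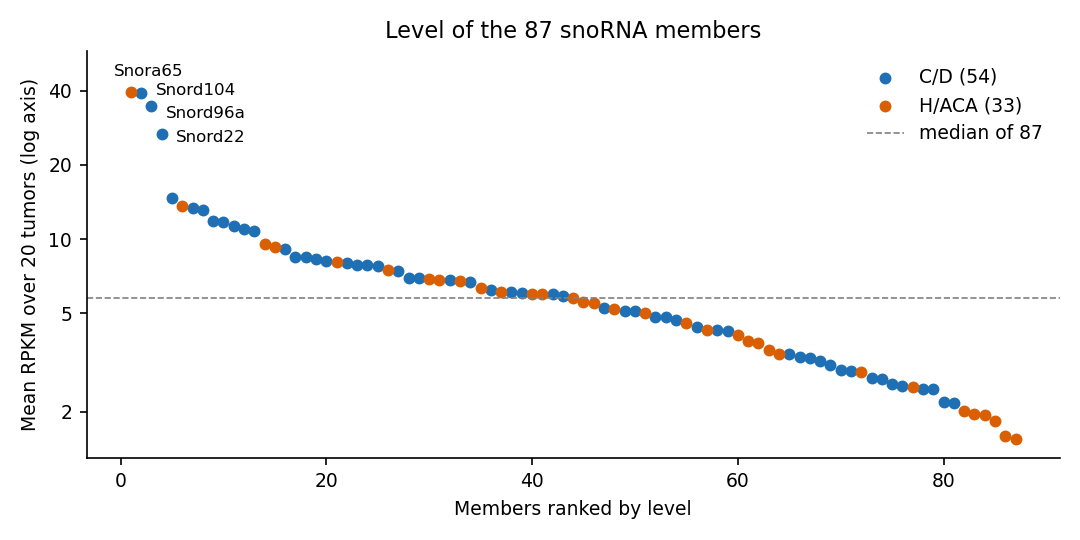
Mean RPKM over 20 tumors (log axis) of the 87 snoRNA members in order of level, with C/D members in blue and H/ACA members in orange. Snora65, Snord104, Snord96a and Snord22, at 39.4 to 26.7 RPKM, stand above the next member, Snord2, at 14.7 RPKM; the dashed line marks the median of 5.77 RPKM.

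Snora65 was the highest member. Its level was 39.4 ± 8.85 RPKM (SD, n = 20), with 24.0, 38.5 and 58.02 RPKM as the lowest, median and highest Lo tumor and 30.2, 37.4 and 51.8 RPKM in Hi. Snord104 followed with 39.1 ± 9.40 RPKM, between 28.1 and 53.8 RPKM in Lo (median 33.6) and between 29.6 and 62.6 RPKM in Hi (median 37.5). These neighbours did not differ beyond their spread, and in both genes the groups overlapped over nearly their whole range. Snord96a stood at 34.7 ± 8.24 RPKM, ranging from 22.9 to 53.6 RPKM in Lo and from 25.8 to 43.6 RPKM in Hi. Snord22, which acts in processing of the ribosomal RNA precursor, stood at 26.7 ± 5.86 RPKM and ranged from 20.5 to 38.1 RPKM in Lo and from 17.1 to 36.3 RPKM in Hi.

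After these 4 members, the only ones with a mean count of 100 or more, levels fell by a step. Snord2, in the translation factor gene Eif4a2, had 14.7 ± 6.79 RPKM, and Snord52 had 13.4 ± 4.93 RPKM. Among H/ACA members, Snora70 in the ribosomal protein gene Rpl10 followed Snora65 with 13.7 ± 3.07 RPKM. Snora64, hosted by Rps2, had 9.57 ± 2.89 RPKM. Snora28, hosted by the translation factor gene Eif5, had 9.31 ± 2.40 RPKM, and Snora31, hosted by Tpt1, 8.12 ± 3.37 RPKM. Snora64, Snora28 and Snora31 lay within 1 SD of each other, as did Snord2, Snord52 and Snora70.

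Host genes were sought as the most highly counted gene, other than a small RNA, whose span contains the member on the same strand. A host was found for 85 members, the exceptions being Snord104 and Snora24, and the 85 shared 64 hosts. By their symbol in the count table, 24 encode ribosomal proteins, 7 encode translation factors or RNA-binding proteins, 7 are named Snhg or Gas5, and 26 are other genes. An Snhg gene listed under another name, such as a Rik symbol, would fall among the 26. Snora73a, Snora73b, Snora74a, Snord68 and Snord88c lie within more than 1 such gene, and their assigned host is 1 choice among them.

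Most members were far below their host. The median host of a member stood at 68.2 RPKM, and the median member reached 10.004% of the RPKM of its host. Members in ribosomal protein genes reached 2.29% of hosts at a median of 229.6 RPKM. Members in Snhg genes or Gas5 reached 131% of hosts at a median of 4.18 RPKM. In all, 10 members exceeded their host, 6 of them in hosts named Snhg or Gas5. Snord22 was one of these, with 26.7 RPKM against 13.98 ± 1.76 RPKM (SD, n = 20) for Snhg1. Snord96a, in contrast, stood at 34.7 RPKM in a host at 179.3 ± 23.0 RPKM. Reads of unspliced host RNA over a snoRNA and reads of the snoRNA itself cannot be told apart in gene counts, and for 50 members an annotated exon of another gene (the host included) on the same strand, in 39 of them of a retained-intron transcript, overlaps the snoRNA.

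Since most members lie within a host gene, their levels were set against those of RNAs kept in the nucleus. The nuclear RNA score was the mean log2 CPM (counts per 1000000 after TMM scaling) of Malat1, Neat1, Kcnq1ot1 and Meg3, long noncoding RNAs kept in the nucleus, centred on the mean of the 20 tumors. The summed level of the 87 members followed this score across tumors. It was lowest in Lo 4 (42.5 CPM, score -0.81), Hi 11 (44.1 CPM, score -0.62) and Hi 7 (46.7 CPM, score -0.91). It was highest in Hi 9 (77.1 CPM, score 0.39), Hi 4 (75.5 CPM, score 0.70) and Lo 1 (75.4 CPM, score 0.16). Pearson's r of the log2 sum with the score was 0.83 and Spearman's rho 0.82 over 20 tumors that each give both values from 1 library. Within Lo r was 0.72, within Hi 0.94, and without Lo 4 and Hi 7, the tumors farthest from the median score, 0.75. With the share of counts on the ribosomal RNA locus r was 0.08 over all tumors, -0.27 within Lo and 0.51 within Hi. With the total count it was 0.24, 0.005 within Lo and 0.44 within Hi. The score and the locus share had an r of 0.06 with each other, -0.33 within Lo and 0.66 within Hi. Their separate parts in the summed level were not tested.

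**Figure D2:**
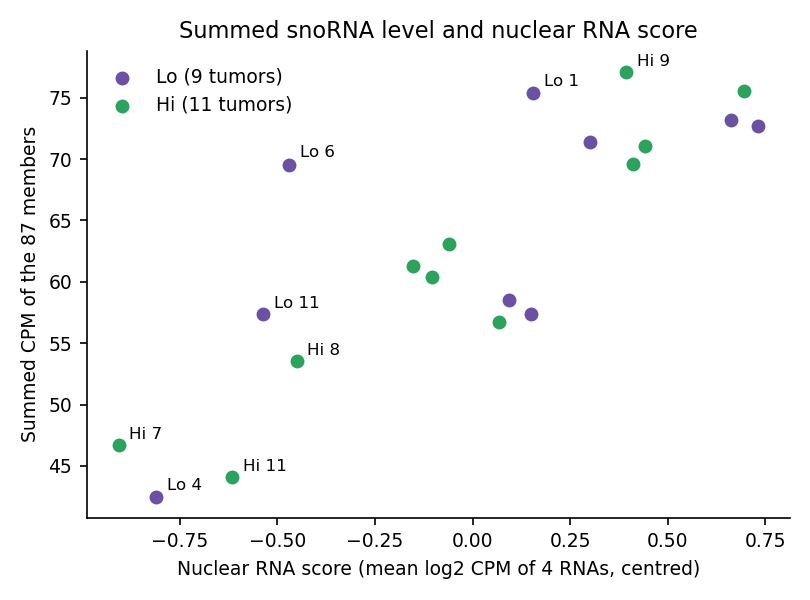
Summed CPM of the 87 snoRNA members against the nuclear RNA score (mean log2 CPM of 4 nuclear RNAs, centred), 1 point per tumor, for 9 Lo and 11 Hi tumors. Lo 4, Hi 11 and Hi 7 lie lowest at 42.5, 44.1 and 46.7 CPM, and Lo 6 lies above the other tumors of low score at 69.5 CPM; the vertical axis does not start at 0.

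Member by member, the slope on the score was tested with edgeR's quasi-likelihood test in a fit with group over 18883 genes. Of the 86 members tested (Snord123 was under the filter on low counts), 46 rose with the score at an adjusted p under 0.05 and 0 fell. The background was 11.2% of all genes higher and 6.35% lower, and among other genes in the range of mean counts of the members 15.9% rose. The median slope of the members was 0.60 log2 units per unit of score, against -0.03 over all genes tested. C/D members rose in 32 of 53 cases (median slope 0.74) and H/ACA members in 14 of 33 (median slope 0.50). The slope was positive in 79 members and negative in 7.

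The steepest slopes belonged to 5 weakly counted C/D members. Snord66 rose by 1.59 log2 units per unit of score (SE 0.33, edgeR adjusted p = 0.00232). Its levels ran from 0.27 RPKM in Lo 6 to 6.62 RPKM in Lo 7, with a median of 1.86 RPKM, and from 0.996 to 5.90 RPKM in Hi, with a median of 4.28 RPKM. Both groups thus spanned nearly the same range. Snord68, hosted by Rpl13, rose by 1.497 (SE 0.31, edgeR adjusted p = 0.00243) and ranged from 0 RPKM in Lo 4, where a count of 0 allows up to 0.716 RPKM, to 7.08 RPKM in Lo 8. Snord71, in the adaptor gene Ap1g1, rose by 1.402 (SE 0.28, edgeR adjusted p = 0.00173), Snord23 by 1.34 (SE 0.31) and Snord88c by 1.29 (SE 0.32). All 5 were lowest in tumors of low score, namely Lo 4, Lo 6, Hi 7 or Hi 11.

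The abundant members split. Snora65 rose by 0.34 log2 units per unit of score (SE 0.11, edgeR adjusted p = 0.0341) and Snord96a by 0.39 (SE 0.11, edgeR adjusted p = 0.0166). Snord104, 1 of the 2 members for which no host was found, had a slope of -0.03 (SE 0.13, adjusted p = 0.896). Snora24, the other member without a host found, had a slope of 0.50, short of the threshold. Snord22 had a slope of 0.07 (SE 0.15, adjusted p = 0.807). Both members of Eif4a2 rose, Snord2 by 1.02 (SE 0.17) and Snora81 by 0.83 (SE 0.14). Snora64 rose by 0.51 (SE 0.15) and Snora31 by 0.74 (SE 0.23), whereas Snora70 had a slope of 0.34 (SE 0.14, adjusted p = 0.0974) and Snora28 one of 0.20 (SE 0.18, adjusted p = 0.479). Of the members with a mean count of 50 or more, 11 of 18 rose. The calls of Snora65, Snord96a and Snora64 ended without Lo 4 and Hi 7 (edgeR adjusted p = 0.2135, 0.125 and 0.0851) and, with that of Snora31, when Malat1 alone was the score (edgeR adjusted p = 0.329, 0.118, 0.237 and 0.344), with slopes still positive. Those of Snora65, Snora64 and Snora31 also ended without a filter on low counts (edgeR adjusted p = 0.0571, 0.0533 and 0.0515), while those of Snord2 and Snora81 remained under all 3 of these settings.

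Host genes were tested in the same fit. Of 63 hosts tested, 7 rose and 17 fell, with a median slope of -0.12, beside 11.2% of all genes higher and 6.35% lower. Among ribosomal protein hosts 0 of 24 rose and 10 fell (median slope -0.22). The count that fell depended on the scaling. With library sizes only, in place of TMM, 2 of 63 hosts and 1 of 24 ribosomal protein hosts fell (median slopes -0.04 and -0.13), beside 0.429% of all genes in place of 6.35%, and the median slope of all genes moved from -0.03 to 0.05. Within Lo 0 hosts fell, beside 0.259% of all genes, and within Hi 6, beside 2.09% of all genes. Rpl13a, host of Snord32a, Snord33, Snord34 and Snord35a, fell by 0.22 (SE 0.07, edgeR adjusted p = 0.0342), while all 4 of its snoRNAs rose. Gnb2l1 fell by 0.23 (SE 0.07, edgeR adjusted p = 0.0268), while Snord96a and Snord95 rose, the latter short of the threshold with Malat1 alone (adjusted p = 0.051). With library sizes only the falls of Rpl13a and Gnb2l1 were 0.14 (edgeR adjusted p = 0.359) and 0.15 (edgeR adjusted p = 0.342), while their 6 snoRNAs still rose. Without a filter on low counts both falls also ended (edgeR adjusted p = 0.0635 and 0.0517). Among hosts named Snhg, Snhg7 rose by 0.60 (SE 0.11) and Snhg18 fell by 0.30 (SE 0.10). The call of Snhg18 ended with library sizes only (edgeR adjusted p = 0.134) and with Malat1 alone (edgeR adjusted p = 0.0896). Of the others Nop56, host of Snord57, rose by 0.32 (SE 0.11) and Srcap, a chromatin remodeller that hosts Snora30, by 0.45 (SE 0.06). Of 10 alternative settings, some with fewer tumors, the call held in 5 for Rpl13a, 7 for Gnb2l1, 9 for Snhg7, 6 for Snhg18, 4 for Nop56 and 10 for Srcap.

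**Figure D3:**
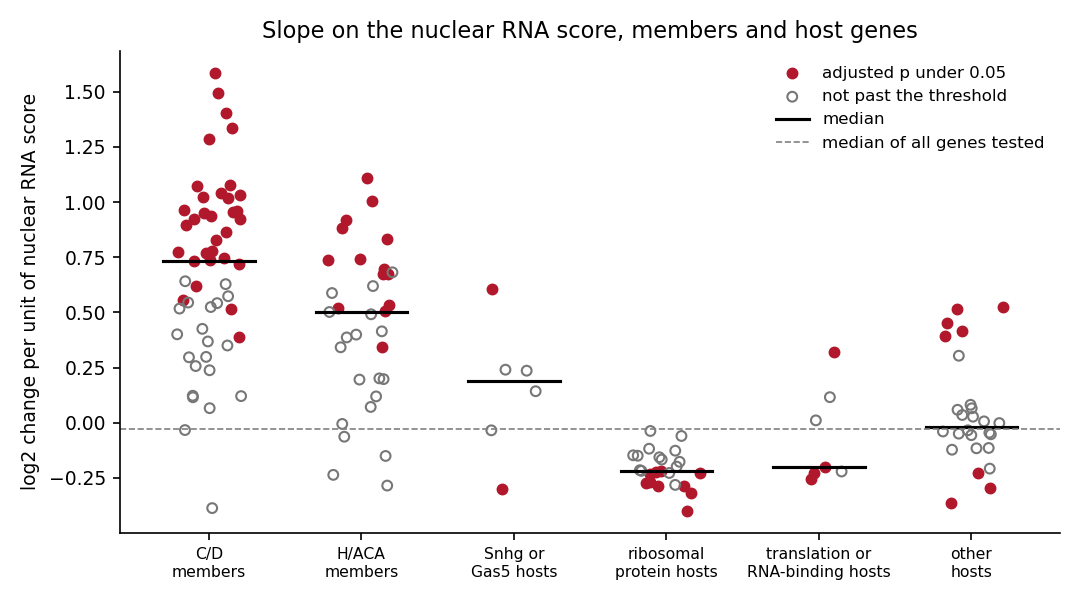
Slope on the nuclear RNA score (log2 change per unit of score, edgeR) for C/D members, H/ACA members and 4 kinds of host genes, 1 point per gene, with filled red points at an adjusted p under 0.05 and black bars at the medians. The medians are 0.74 for C/D and 0.50 for H/ACA members and -0.22 for ribosomal protein hosts; the dashed line is the median of all genes tested, -0.03.

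Other kinds of genes gave a scale for the 53.5% of members that rose. Among 42 genes annotated as sense intronic 71.4% rose, among 342 genes annotated as TEC (transcripts not yet assigned a type) 52.6%, and among 110 other snoRNA genes 58.2%. Of 14650 protein-coding genes 7.41% rose and 7.46% fell. Of 12 other small RNAs tested (genes named Scarna, Rnu, Rmrp, Rpph1, Terc or Rn7sk) 1 rose, Rnu73b. They were drawn by name and not by kind, and include Rnu3a, annotated as a snoRNA. Rnu73b may be a snoRNA as well, so that the 12 do not set snoRNAs against RNAs of other kinds. The 50 members covered by an exon of another gene rose in 27 cases and the other 36 tested in 19.

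Genes of the snoRNA particles, the U3 processome and RNA polymerase I were read beside the 11.2% of all genes that rose and the 6.35% that fell. Their lists hold 4 to 11 genes each, too few to be set apart from these shares. Of the core C/D proteins, Nop56 rose by 0.32 (SE 0.11, edgeR adjusted p = 0.0455) and Nhp2l1, which binds the C and D boxes, fell by 0.19 (SE 0.05, edgeR adjusted p = 0.0144), while fibrillarin (Fbl) had a slope of -0.07 (SE 0.09) and Nop58 one of -0.01 (SE 0.09). Of the 4 core H/ACA proteins (Dkc1, Nhp2, Nop10, Gar1), 11 assembly and trafficking factors and 5 genes of RNA polymerase I, 0 passed the threshold. Of 5 proteins of the U3 processome, Utp3 fell by 0.18 (SE 0.05, edgeR adjusted p = 0.0259). With library sizes only none of Nop56, Nhp2l1 and Utp3 passed (edgeR adjusted p = 0.0528, 0.295 and 0.399), nor did any with Malat1 alone (0.265, 0.0534 and 0.072).

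Markers of cell types were read beside this slope. Of 6 epithelial markers Krt8, Krt18 and Epcam fell with the score, and the summed level of the 6 ran from 2523 to 3926 CPM with an r of -0.74 with the score. Of 6 leukocyte markers Cd53 and Laptm5 fell, with a summed level of 206.5 to 596 CPM and an r of -0.27. With library sizes only none of these 5 markers passed (edgeR adjusted p between 0.109 and 0.267). Of 6 fibroblast and 6 adipocyte markers 0 passed, and their sums had an r of -0.22 and -0.49. The fat cell markers Plin1 and Lep were at 0 in at least 1 tumor. Cidec, Adipoq and Fabp4 reached down to 0.0294, 0.224 and 1.14 RPKM, but Pnpla2 did not fall below 15.4 RPKM. Among epithelial markers Krt8 did not fall below 309 RPKM, but Krt19 reached down to 4.69 RPKM. The part of cell makeup in the slopes of the snoRNAs was not tested.

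The number of members past the threshold depended on the tumors and the score. Without Lo 4 and Hi 7, 21 of 86 members rose and 0 fell, beside 6.42% of genes higher. Within the 9 Lo tumors 6 members rose (2.88% of genes), with a median slope of 0.65, and within the 11 Hi tumors 10 rose (3.26% of genes), with a median slope of 0.59. With Malat1 alone as the score 28 rose, beside 8.87% of genes, and with no filter on low counts 37 of 87 rose, beside 6.47%.

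Across tumors the r with the host differed by the kind of host. Pearson's r of log2 CPM between member and host over 20 tumors had a median of -0.0025 over 85 members, with 42 positive. For the 11 members in hosts named Snhg or Gas5 the median was 0.55 and all 11 were positive (0.65 within Lo and 0.64 within Hi). For the 36 members in other hosts, which may include such genes under other names, the median was 0.07. Of these 36, 23 were positive, and the lowest value was -0.61. For the 30 members in ribosomal protein genes the median was -0.28 and 5 were positive (-0.33 within Lo and -0.23 within Hi). These are descriptions over 20 libraries that share scale factors, and with library sizes alone in place of TMM the median over all 85 members was 0.18.

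**Figure D4:**
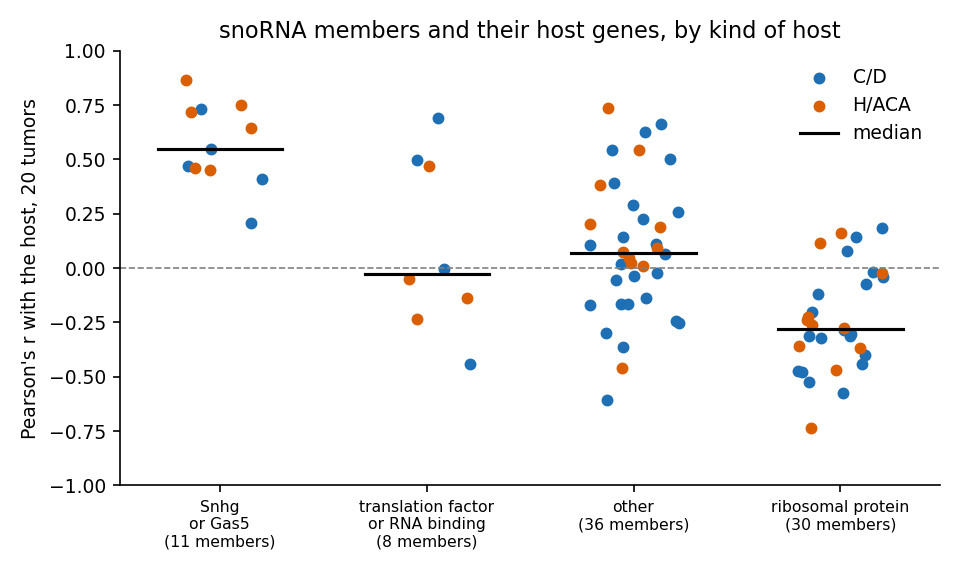
Pearson's r between each of 85 snoRNA members and its host gene (log2 CPM, 20 tumors), by kind of host, with C/D members in blue, H/ACA members in orange and black bars at the medians. All 11 members in hosts named Snhg or Gas5 lie above 0 (median 0.55), whereas the 30 in ribosomal protein genes have a median of -0.28.

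The closest pair was Snora43 and Snhg7, with an r of 0.87 (rho 0.83, 0.95 within Lo and 0.71 within Hi), and of all genes tested Snhg7 was the one most like Snora43. Snora17, also in Snhg7, had an r of 0.72 with it. Snora61 had an r of 0.75 with Snhg12, which ranked 10 among all genes tested, and Snord50a an r of 0.73 with Snhg5 (0.83 within Lo and 0.24 within Hi). Outside hosts named Snhg or Gas5, Snora30 had an r of 0.74 with Srcap and Snord57 one of 0.69 with Nop56. The lowest value was that of Snora52 and the ribosomal protein gene Rplp2, -0.74. These pairs were chosen after their values were seen. By the rule on members with a mean count of 100 or more, r was 0.47 for Snord22 and Snhg1, 0.16 for Snora65 and Rpl12, and -0.30 for Snord96a and Gnb2l1.

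Members of 1 host tended to vary together. The median r was 0.53 over 30 pairs of members that share a host and 0.34 over the other 3711 pairs. In Rpl13a the 4 snoRNAs had a median r of 0.58 at levels that differed at most 1.37-fold. In Gnb2l1 Snord96a and Snord95 had an r of 0.66 although their RPKM differed 5.70-fold. The 4 snoRNAs of Snhg12 had a median r of 0.31 and differed up to 4.31-fold. In Rpl23a the 3 members had a median r of -0.01. The pattern most like that of Snord96a was that of RP23-87D8.4 (r = 0.92), followed by Snrnp70 (r = 0.89), and that of Snora65 was most like RP23-87D8.4 (r = 0.80) and Ppan (r = 0.80). For Snord104 the nearest genes were Gm20708 (r = 0.81) and Arl2bp (r = 0.81), and for Snord22 the snoRNA genes Gm22988 (r = 0.74) and Gm24339 (r = 0.73), each over 20 tumors.

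Variation between tumors was given as the biological coefficient of variation (BCV), the spread that remains after counting error. Its median was 0.35 over the members, beside 0.31 over other genes in their range of mean counts and 0.18 over all genes tested. C/D and H/ACA members had the same median to 2 decimals. Of the most abundant members Snord22 had a BCV of 0.23, Snord104 of 0.21, Snord96a of 0.20 and Snora65 of 0.20.

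Between Lo and Hi 0 members differed by edgeR's quasi-likelihood test, beside 0.0% of 18883 genes. At an unadjusted p under 0.05 there were 5 members of 86, or 1045 genes (5.53%), and DESeq2 called 0 members. The median difference of the members, Lo minus Hi, was 0.01 on the log2 scale, with 44 higher in Lo. With library sizes only 26 of 86 were higher in Lo (median -0.07), beside a median of -0.09 over all genes. Without Lo 6 and Lo 11 57 of 86 were higher in Lo (median 0.07), beside a median of 0.0001 over all genes. The Lo and Hi ranges overlapped in all 87 members. The share of all genes with such an overlap was not computed, so that this count marks nothing particular to the members. The 5 members with an unadjusted p under 0.05 were Snora5c, Snora74a, Snord17, Snora73b and Snora73a, all with higher fitted levels in Lo.

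The share of counts on the ribosomal RNA locus (Yam1 and AY036118) ran from 6.29% to 27.7% per tumor. On this share, per 10 percentage points and in a fit with group, 0 members passed the threshold, beside 7 of 18883 genes (0.0371%). At an unadjusted p under 0.05 there were 9 members of 86, beside 12.8% of genes. The median slope of the members was -0.10, and 31 were positive, but without Lo 1 and Lo 6, the tumors with the smallest and the largest share, the median was 0.14 and 59 of 86 were positive. Snora5c had the lowest adjusted p, 0.0967, with a slope of 0.93 (SE 0.20). With DESeq2, or without the group term, 2 members passed, Snora5c and Snora74a, both higher at a larger share, beside 1.05% and 0.132% of genes. Without the locus genes 0 of 85 members passed (0.00527% of genes), with no filter 0 of 87 (0.0157%), and without Lo 1 and Lo 6 0 of 86 (0.0208%).

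The 4 longest members are described together, a grouping made after their values were seen and given without a test. Snora74a (196 bases), Snora73a and Snora73b (205 bases each) and Snord17 (238 bases) had slopes on the nuclear RNA score of -0.15 to -0.39, so that 0 of 4 rose, against 46 of 82 tested members under 190 bases (median slope 0.62). Their slopes on the share of the ribosomal RNA locus were all positive, with a median of 1.16, against -0.13 for the shorter members (lowest -0.83, highest 0.93). Without Lo 1 and Lo 6 the medians were 1.04 and 0.13, so that the sign of the shorter members turned. Their differences between Lo and Hi ran from 0.76 to 1.18, against a median of -0.02 and a range of -0.53 to 0.82 for the shorter members, which overlaps theirs. The highest of the shorter members on both measures was Snora5c (136 bases), with a difference of 0.82, a slope on the locus share of 0.93 and a slope on the nuclear RNA score of -0.0051, so that these values were not particular to the longest members. Their BCV had a median of 0.59, and Snord17, Snora74a, Snora73b and Snora73a ranked 1, 2, 4 and 6 among the members.

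Lo 6 and Lo 11 held most of the high values. Snora73b ran from 1.26 to 18.9 RPKM in Lo, with a median of 6.92 RPKM, and from 0.832 to 7.81 RPKM in Hi, with a median of 5.65 RPKM. The values of 18.9 RPKM in Lo 6 and 17.8 RPKM in Lo 11 lay above every other tumor, Lo 4 at 9.11 RPKM lay just above the Hi range, and the other Lo tumors lay within it. Snora73a had its highest values in the same tumors, 15.6 and 14.96 RPKM, against a highest Hi value of 8.06 RPKM. Snord17, too, was highest there, with 15.5 and 9.72 RPKM, and ranged from 0 RPKM in Hi 7, where a count of 0 allows up to 0.307 RPKM, to 7.18 RPKM in Hi. Snora74a reached 7.67 RPKM in Lo 6 and 4.31 RPKM in Lo 9 against at most 2.61 RPKM in Hi. Without Lo 6 and Lo 11 the difference fell from 0.87 to 0.24 in Snora73b, from 0.76 to 0.17 in Snora73a, from 1.18 to 0.54 in Snord17 and from 1.11 to 0.53 in Snora74a. Lo 6 also had the largest share of the ribosomal RNA locus, 27.7%, and both tumors had low nuclear RNA scores, -0.47 and -0.54. The part of these in the levels was not tested.

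**Figure D5:**
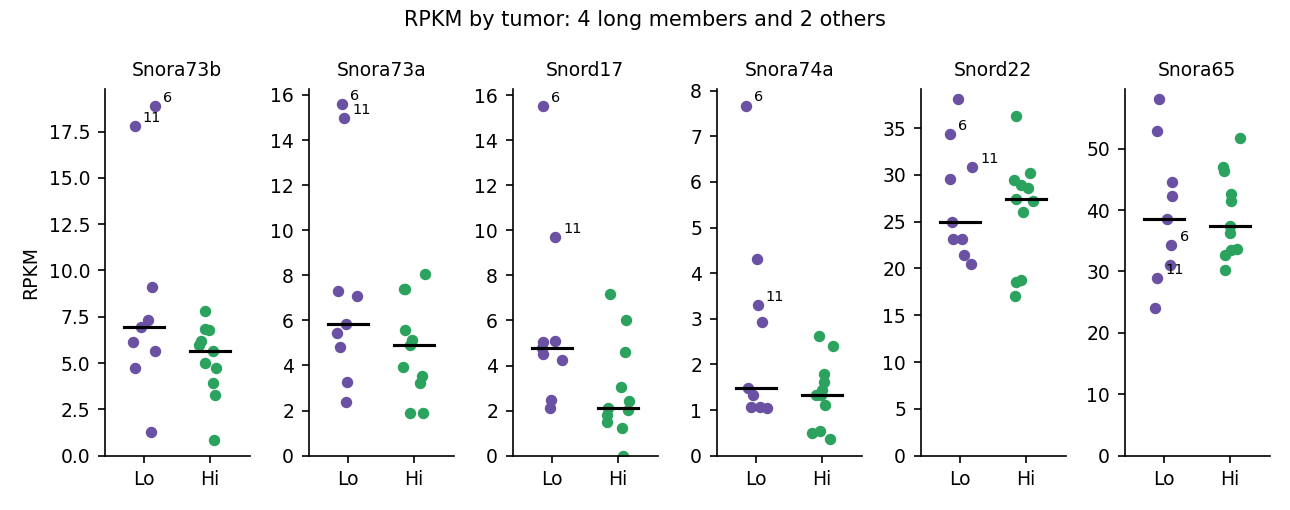
RPKM in 9 Lo and 11 Hi tumors of the 4 longest snoRNA members and of Snord22 and Snora65, each panel with its own axis from 0, black bars at the medians, and the points of Lo 6 and Lo 11 numbered. In the 4 long members Lo 6 is the highest tumor (18.9 RPKM for Snora73b), whereas in Snora65 Lo 6 has 34.2 RPKM and lies below the Lo median of 38.5 RPKM.

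Within the groups the slopes of the long members on the nuclear RNA score had opposite signs, and none of the 4 passed the threshold in either group. Snora73b had a slope of -1.32 (SE 0.46, adjusted p = 0.141) within Lo and of 1.14 (SE 0.33, adjusted p = 0.0618) within Hi, and Snora73a had -1.21 (SE 0.41) and 1.08 (SE 0.32). The slope in Lo minus that in Hi was -2.48 (SE 0.61) for Snora73b and -2.31 (SE 0.55) for Snora73a. Neither passed the adjusted threshold of edgeR's test of this difference over all genes (adjusted p = 0.5685 for both), by which 0 members and 0.0% of genes were called, and 8 members of 86 had an unadjusted p under 0.05, beside 8.07% of genes.

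The r of Snora73b with other long small RNAs ranged from 0.24 to 0.90. Over 20 tumors Snora73b had an r of 0.90 with Snora73a, 0.75 with Snord17, 0.71 with Snora74a, 0.71 with Rn7sk, which holds back the elongation factor P-TEFb, 0.65 with Rnu3a, a U3 RNA of ribosomal RNA cleavage, and 0.61 with Rmrp, the RNA of RNase MRP. It was lower with Rpph1, the RNA of RNase P (0.47), with the telomerase RNA Terc (0.28) and with Scarna10 (0.24), beside a median of 0.34 over all pairs of members. Its r with Gm17300, a lincRNA annotated on the opposite strand over both Snora73 copies, was 0.85. Reads of the 2 strands cannot be told apart where counting ignores strand, and the strand setting is not given in the sources used here. Of the 8 other small RNAs of 190 bases or more that were tested, all 8 had a positive Lo minus Hi difference (median 0.60) and all 8 a positive slope on the share of the ribosomal RNA locus (median 0.87), while 0 rose with the nuclear RNA score.

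Among the members known from cleavage of the ribosomal RNA precursor, the U14 family (Snord14) acts in both cleavage and methylation. Snord14d had 11.8 ± 4.27 RPKM (SD, n = 20), Snord14e 11.3 ± 2.87 RPKM and Snord14c 6.81 ± 2.85 RPKM, all in Hspa8. Snord14a, in the ribosomal protein gene Rps13, had 4.84 ± 1.95 RPKM. Snord14d rose by 0.62 (SE 0.21, edgeR adjusted p = 0.0437) per unit of nuclear RNA score and Snord14e by 0.51 (SE 0.14, edgeR adjusted p = 0.0162), whereas Snord14c had a slope of 0.43 (SE 0.22, adjusted p = 0.199) and Snord14a one of 0.35 (SE 0.24, adjusted p = 0.348). Without Lo 4 and Hi 7 neither call held (0.49, edgeR adjusted p = 0.2325 for Snord14d, and 0.51, edgeR adjusted p = 0.082 for Snord14e). Snord14d was also short of the threshold without a filter (adjusted p = 0.0709), and Snord14e with Malat1 alone (adjusted p = 0.0572). Hspa8 had a slope of 0.01 (SE 0.10). Snora73a, with 5.98 ± 3.69 RPKM, had a slope of -0.15 (SE 0.38, edgeR adjusted p = 0.8225). Snora73b, with 6.74 ± 4.45 RPKM, had one of -0.24 (SE 0.41, edgeR adjusted p = 0.7388). Neither could be told from 0, both were positive within Hi, and Snord22 lay near 0. Snord118 (U8), with a mean of 7.75 reads, and Snord13, with 0.800 reads, were under the count minimum.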

How the data were processed

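For each of 20 tumors the authors deposited 1 column of whole-number read counts by gene, not normalized. Per the methods and the submitters' processing notes, RNA was prepared with a TruSeq mRNA kit, sequenced in paired reads trimmed to 100 bases, aligned to mm10 with TopHat2 2.0.12 and counted with featureCounts 1.4.4. The strand setting and annotation release are not given in the sources used here, so that overlapping, antisense and near-identical genes are uncertain.  Replicates were separate mice.

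The members and gene lists were chosen with earlier results of these data known. Counts over all genes were fitted with the quasi-likelihood test of edgeR 4.0.16 in R 4.3.3, after filterByExpr and TMM scaling, with a Benjamini-Hochberg threshold of 0.05, with DESeq2 1.42.0 as an alternative. SE are the coefficient divided by the root of the F statistic. The main fits tested 18883 genes. On simulated data, edgeR recovered 166 of 200 changed genes for Lo against Hi, 149 for the ribosomal RNA locus slope and 162 for the nuclear RNA slope, with 8, 8 and 5 false calls among 18883 genes. The changed genes were drawn from all genes tested, with median fitted sizes of 0.986, 0.992 and 0.996 log2 units per unit of the covariate. These numbers do not give the recovery of smaller changes or at the members' counts. RPKM was computed from the counts, the listed length and the total count, and log2 CPM used TMM and a prior count of 2. No molecular identifiers were used, so the floors given for a count of 0 (3 reads) allow for counting error alone.

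Named members were the 5 of each class with the highest RPKM, those with a mean count of 100 or more by BCV and by r with the host, up to 5 per direction and fit past the threshold, those of ribosomal RNA cleavage, and those beside the count minimum. Others were named after their values were seen, namely the closest and the lowest host pairs, the long members, Snora5c, Snora81 and the examples of shared hosts. Hosts and exons were assigned with GENCODE M21 (GRCm38). The identifier of Snhg7 names another gene in M21, and the deposited span was used. Sequence identity was computed with edlib 1.3.9.post1, and the remaining values under Python 3.11.15 (scipy 1.17.1, pandas 2.3.3, numpy 2.4.6). Alternatives changed 1 choice at a time. The fits within Lo, within Hi, without pairs of tumors and with an added covariate, and the test of the difference in slopes, were chosen after seeing the data.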

Additional observations from a re-analysis of the deposited data

Results flagged for a closer look

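Dixon's criterion at 95% was applied to the 9 Lo tumors in 30 measures, namely the named members, their summed level, the nuclear RNA score, the share of the ribosomal RNA locus and the C/D share. Chance flags about 1 in 20 groups, and the 11 Hi tumors were too many for this criterion. Snora74a, Snord17 and Snora5c were added after their values were seen, so that this rate does not hold for them. In 4 members 1 Lo tumor stood apart from the others.

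Snord23 had 5.58 RPKM in Lo 8, beside 2.90 RPKM in the nearest Lo tumor and a Lo median of 1.76 RPKM. Lo 8 is the Lo tumor with the highest nuclear RNA score, 0.73. Snord73a had 7.13 RPKM in Lo 1, beside 3.396 RPKM in the nearest Lo tumor, at a mean of only 10.4 reads. Snora74a had 7.67 RPKM in Lo 6 against 4.31 RPKM in the nearest, and Snora5c had 14.4 RPKM in Lo 6 against 8.32 RPKM. Lo 6 is also the tumor with the largest share of counts on the ribosomal RNA locus, 27.7%, and its part in these values was not tested.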

How the results depend on the processing

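Lo against Hi gave 0 members under every alternative run. Replicate numbers in the titles are shared by Lo and Hi, and the titles do not say whether they pair the tumors. Deviations of same-numbered tumors had correlations of -0.41 to 0.26 over 9 pairs, 2 of them over 0.1, and 1 number matched best. Paired tumors need not be correlated in this way, so that these values do not settle the question. With the number as a replicate block 0 of 83 members differed. On the share of the ribosomal RNA locus 2 members passed with DESeq2 (1.05% of genes) and 2 without the group term (0.132%), while with library sizes only 7 passed, 2 higher and 5 lower, beside 24.2% of genes. The cause was not tested. On the nuclear RNA score 46 members passed with DESeq2 (beside 12.4% of genes higher) and without the locus genes (11.2%), 47 with library sizes only (11.7%), without the group term (11.3%) and with the locus share added (11.9%), and 37 without a filter (6.47%). With Malat1 alone 28 passed, within Lo 6, within Hi 10 and without Lo 4 and Hi 7 21, the last 3 with fewer tumors, and 11 of the 18 members with a mean count of 50 or more.

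The median level was 11.5 RPKM over the 18 members with a mean count of 50 or more and 7.82 RPKM over the 39 with 10 or more reads in every tumor, by construction, and 6.97 RPKM with totals without the locus. The median r with the host was 0.18 with library sizes only, and the median BCV stayed within its jackknife error.

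Some slopes on the nuclear RNA score changed sign, all short of the threshold. Not all of them were near 0 in the main fit (-0.39, SE 0.50, for Snord17 and -0.28, SE 0.43, for Snora74a). Within Lo those that changed sign were Snord22 (-0.29) and Snord104 (0.15), and without Lo 4 and Hi 7 Snord22 (-0.087), Snord104 (0.12) and Snora5c (0.0055). With Malat1 alone they were Snora73a (0.043), Snora73b (0.017), Snord17 (0.030) and Snora5c (0.039). Within Hi they were Snora73a (1.08), Snora73b (1.14), Snora74a (0.55), Snord17 (0.59) and Snora5c (0.52). With library sizes only they were Snord104 (0.038) and Snora5c (0.080), and Snora5c also had 0.0019 with DESeq2 and 0.025 with the locus share added. The median member had 28.2 reads, and how depth limits the calls was not tested at the members' counts.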
